A study of Rattus norvegicus with 24 samples.

Results

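Apolipoprotein E (Apoe) and clusterin (Clu, also called apolipoprotein J) were followed across the right and left ventricles of rats. They are 2 of the 4126 genes named on the array, each read by 1 probe, and both were found by their symbol in the probe annotation. The pair was chosen by its scores and by the number of arrays with a value in the 6 groups of condition and ventricle, so its own values are given as a description, without a test. Apoe had a value on 24 of 24 arrays and Clu on 13.

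The arrays carried 2 dyes, and each compared total RNA of a single ventricle sample with a common reference pool of unstated make-up. The samples were labelled HYP, CHF or CON and taken at day 14. The series title speaks of hypertrophy that is compensated or decompensated after monocrotaline, so HYP was taken to mean the compensated stage, CHF the failing one and CON the control. Neither the abbreviations nor the dose, strain, sex or age are spelled out in the labels. There were 6 right ventricle samples of each condition (HYP 1, 3, 4, 5, 6 and 8, CHF 9, 10, 11, 12, 14 and 15, CON 17 to 22) and 2 left ventricle samples of each (HYP 3 and 5, CHF 9 and 15, CON 21 and 22). The labels do not state that the samples are separate animals, so the spread between them may be technical.

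Apolipoprotein E is the ligand by which remnant lipoproteins are taken up through receptors of the LDL receptor family, and it also carries cholesterol out of macrophages. The liver makes most of what circulates, and macrophages and other cells make it locally. Clusterin is a secreted chaperone that binds unfolded proteins, travels partly on high-density lipoprotein and inhibits the terminal complement complex, and it is known to be made by stressed heart muscle. Monocrotaline is a plant alkaloid that injures lung vessels and so loads the right ventricle.

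Values are deposited scores with the median of each array subtracted. Every array had been put on nearly the same scale before deposit, with an SD of 0.870 to 1.01, so differences are counted in array SDs rather than as log2 fold changes. A score above 0 is read as more RNA in the sample than in the pool relative to the middle probe of that array, but the dye of each channel is not stated in the labels and the direction is not settled. The lowest correlation between a pair of arrays was -0.530. By a rule on correlations below -0.3, 5 arrays have a doubtful sign: CHF 10 and 14 of the right ventricle, and CHF 9, CON 21 and CON 22 of the left ventricle. Results that rest on them are given with their sign turned and without them. As deposited, CHF 9, CON 21 and CON 22 of the left ventricle correlated with the other left ventricle arrays at 0.0904 to 0.696. Turning their sign makes these correlations negative. In whole-tissue RNA, fewer cells of a type and less RNA per cell cannot be told apart.

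Apoe separated the ventricles without overlap. In the right ventricle its scores ran from -0.906 to 0.994, with a mean of 0.0881 ± 0.551 (SD, n = 18). In the left ventricle they ran from -2.95 to -0.96, with a mean of -1.86 ± 0.785 (SD, n = 6). Every right ventricle sample was therefore above every left ventricle sample. Only 12 of 2494 features compared, or 0.481%, had values of the ventricles that did not overlap. Ranked within its own array, Apoe stood between percentiles 17.6 and 92.5 in the right ventricle, with a median of 53.4. On the left ventricle arrays it stood between percentiles 0.153 and 10.4, with a median of 1.62. It was thus near the middle of the right ventricle arrays and near the bottom of the left ventricle arrays.

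The left ventricle values of Apoe were -2.113 and -1.86 in HYP 3 and 5, -2.33 and -0.965 in CHF 15 and 9, and -2.95 and -0.96 in CON 21 and 22. The CON and CHF pairs each held a low and a high sample, and the 3 left ventricle groups overlapped. Group means were -1.99 ± 0.179 in HYP, -1.65 ± 0.965 in CHF and -1.96 ± 1.41 in CON (SD, n = 2 each). Differences between left ventricle groups were 0.308 for CHF minus CON, -0.0315 for HYP minus CON and 0.339 for CHF minus HYP, each smaller than its SE of 0.589. Of these 6 arrays 3 have a doubtful sign, and with it turned the differences were -2.64, -3.94 and 1.30, each ± 0.757. Leaving out CON 21 gave -0.688 for CHF minus CON and leaving out CON 22 gave 1.30, so its direction was not kept.

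Averaged over the 3 conditions, Apoe was 1.95 ± 0.278 array SDs higher in the right than in the left ventricle (SE of the limma fit, n = 18 and 6). By size of the signed difference this was the 4th highest of 2494 features. All 6 sample numbers that occur in both ventricles had the higher Apoe score on the right. The right minus left difference was 2.741 for number 21, 2.384 for 15, 2.196 for 3, 1.207 for 22, 0.954 for 5 and 0.462 for 9. The labels do not say that an equal number marks the same animal. The left ventricle samples form a separate block of the deposit, so that ventricle and any batch cannot be told apart.

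**Figure D1:**
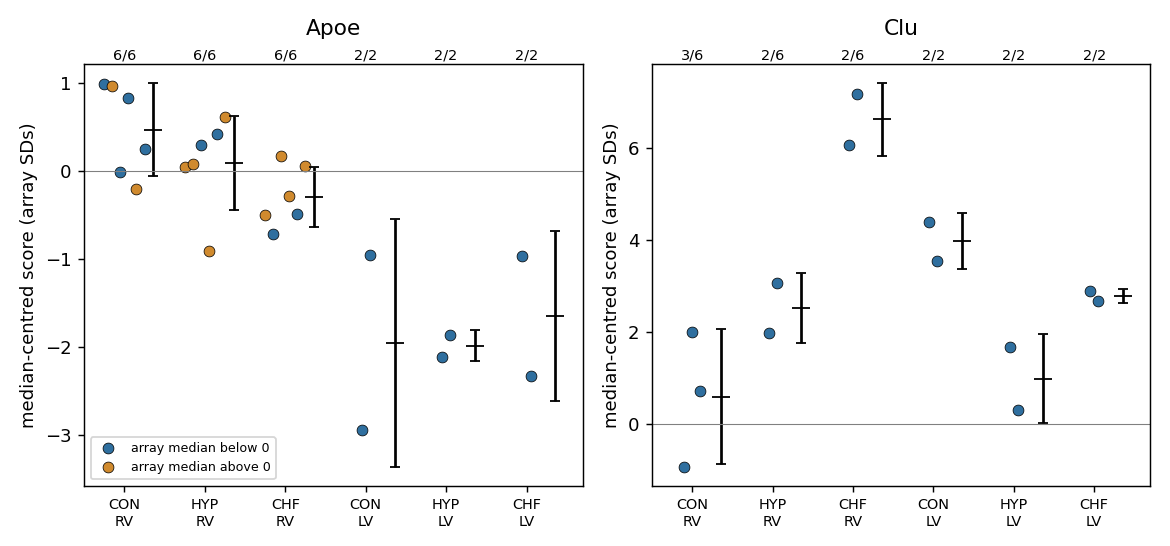
Median-centred score in array SDs (vertical axis) of Apoe (left) and Clu (right) in the 6 groups of condition and ventricle (RV right, LV left). Each point is 1 array, blue where the array's median is below 0 and orange where it is above; bars are mean ± SD, and the figures on top give arrays with a value of all arrays. Apoe is at -0.906 or above on all 18 right ventricle arrays and at -0.96 or below on all 6 left ventricle arrays, and Clu is absent from every orange array.

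**Figure D2:**
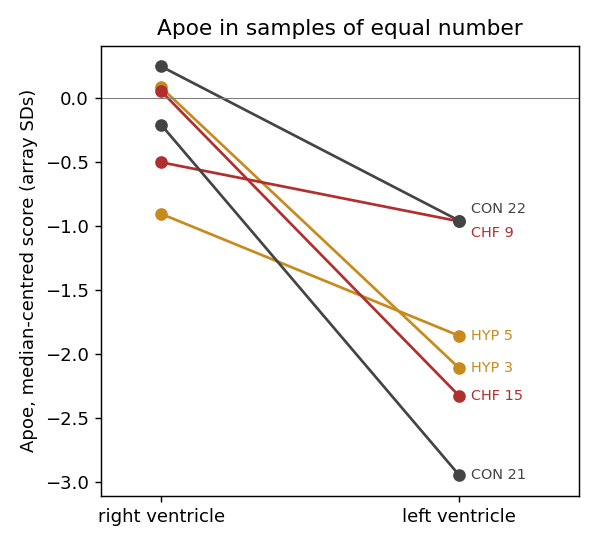
Apoe score in array SDs (vertical axis) in the right and the left ventricle sample of equal number, 1 line for each of 6 numbers, coloured by condition. All 6 lines fall from right to left ventricle, by 0.462 in CHF 9 to 2.741 in CON 21.

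The ventricle difference of Apoe depended on the sign of the doubtful arrays. With the sign turned on those 5 arrays it was 0.460 ± 0.357, since the 3 turned left ventricle values became 0.965, 2.95 and 0.96. As deposited, those 3 arrays correlated with the other left ventricle arrays at 0.0904 to 0.696, and turning makes these correlations negative. Without the 5 doubtful arrays the Apoe difference was 2.13 ± 0.341 (n = 10 and 3, HYP and CHF alone). The array median was a further difference between the ventricles: it was below 0 on all 6 left ventricle arrays and on 8 of the 18 right ventricle arrays. Among those 14 arrays alone the Apoe difference was 1.95 ± 0.338 (n = 8 and 6), and the right ventricle scores, from -0.713 to 0.994, were still above all left ventricle scores. In this set 0.85% of 2118 features did not overlap between the ventricles. This comparison was chosen after the data were seen.

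In the right ventricle, Apoe had its highest mean in CON and its lowest in CHF, with overlapping groups. CON values had a lowest of -0.209, a median of 0.54 and a highest of 0.994. HYP values had a lowest of -0.906, a median of 0.187 and a highest of 0.613. CHF values had a lowest of -0.713, a median of -0.39 and a highest of 0.167. The means were 0.470 ± 0.528 in CON, 0.0898 ± 0.532 in HYP and -0.296 ± 0.344 in CHF (SD, n = 6 each). Neighbouring groups in this order differed by less than the SD of CON or HYP, by -0.380 ± 0.292 for HYP minus CON (-0.181 without HYP 5) and by -0.386 ± 0.292 for CHF minus HYP (SE).

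CHF minus CON was -0.766 ± 0.292 for Apoe, and 84.0% of the 3199 features tested had a smaller absolute difference. It was -0.364 ± 0.306 with the sign of CHF 10 and 14 turned, and -0.612 ± 0.328 without them. CHF minus HYP was 0.0168 ± 0.306 with the sign turned, so the order of these groups was not kept there. On arrays with a median below 0, CHF stood at -0.604 ± 0.155 (n = 2), against 0.516 ± 0.476 in CON (n = 4) and 0.355 ± 0.0919 in HYP (n = 2). On arrays with a median above 0 the means were -0.142 ± 0.308 in CHF (n = 4), 0.379 ± 0.831 in CON (n = 2) and -0.0428 ± 0.632 in HYP (n = 4). The order of the 3 means was the same in both sets of arrays. The CHF samples of the first set were CHF 10 and 14, whose sign is doubtful.

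Clu was measured on a particular set of arrays. It had a value on all 6 left ventricle arrays and on 7 of 18 right ventricle arrays. It had a value on 13 of the 14 arrays with a median below 0 and on 0 of the 10 arrays with a median above 0. The exception was CON 22 of the right ventricle, with a median of -0.094 and no Clu value. Of the 4236 probes with any value, 1 other, for the neuronal cytoskeletal regulator Dpysl2, was present on exactly the same 13 arrays. The arrays with Clu did not hold clearly more values, with 2616 to 3605 (median 3246) against 2162 to 3658 (median 3112) on the arrays without it. Their highest deposited score of any probe was 4.40 to 10.2, against 1.83 to 4.93 on arrays without Clu. No label states why values are missing, so a missing Clu value cannot be read as a low value.

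**Figure D3:**
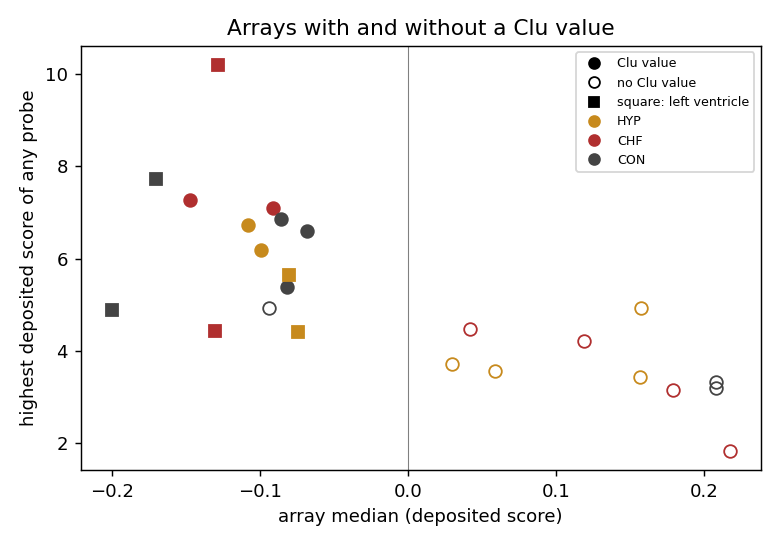
Median (horizontal axis) and highest (vertical axis) deposited score of each of the 24 arrays, in score units. Filled symbols are arrays with a Clu value, squares are left ventricle, colours are conditions. All 13 filled symbols lie at medians below 0, with highest scores of 4.40 to 10.2, while 10 of the 11 open symbols lie above 0.

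Where it was measured, Clu lay above the array median on 12 of 13 arrays. The 2 CHF right ventricle values were 6.067 in CHF 10 and 7.184 in CHF 14, the 4th highest of 3030 scores and the 2nd highest of 2935 on those arrays. HYP right ventricle values were 1.982 in HYP 4 and 3.066 in HYP 6. CON right ventricle values were -0.937 in CON 17, 1.9855 in CON 19 and 0.709 in CON 20. CON 17 was the single array on which Clu lay below the median.

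In the left ventricle Clu was at 4.4 and 3.54 in CON 21 and 22, the 9th of 3271 and the 23rd of 3075 scores. It was at 2.893 and 2.68 in CHF 9 and 15, and at 1.668 and 0.288 in HYP 3 and 5. The 3 left ventricle groups did not overlap, with CON highest and HYP lowest. Between 27.3% and 34.5% of the 2494 features also had left ventricle groups of 2 arrays that did not overlap in a given pair of conditions, so this separation is common at that size.

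Ordered by mean, Clu was 6.63 ± 0.790 in CHF right ventricle, 3.97 ± 0.608 in CON left, 2.79 ± 0.151 in CHF left and 2.52 ± 0.767 in HYP right (SD, n = 2 each). HYP left followed at 0.978 ± 0.976 (n = 2) and CON right at 0.586 ± 1.47 (n = 3). Of neighbours in this order, CHF left overlapped HYP right, and HYP left overlapped CON right. The other neighbours did not overlap. Groups did not overlap for 19% of 2494 features in CHF right against CON left and for 10% in HYP right against HYP left. In CON left against CHF left it was 27.3%. Of the 2494 features 2461 had values on at least 3 arrays of each right ventricle group. The 19% and 10% are therefore not at the size of the Clu groups of 2.

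CHF minus CON of the right ventricle was 6.04 ± 0.861 for Clu (SE, n = 2 and 3), and its groups did not overlap, as for 3.22% of the 3199 features. CHF minus HYP was 4.10 ± 0.943 (n = 2 and 2), again with no overlap, as for 2.56% of features. Of the 3199 features 2951 had values on at least 3 arrays of each right ventricle group. Fuller groups separate less often, so neither share is at the size of the Clu groups, and neither shows that its separation is rare. HYP minus CON was 1.94 ± 0.861 (n = 2 and 3) with overlapping values, and 1.18 without CON 17. In the left ventricle the differences were -1.18 for CHF minus CON, -2.99 for HYP minus CON and 1.81 for CHF minus HYP, each ± 0.865 (n = 2 and 2). The difference between ventricles was 0.667 ± 0.485 (n = 7 and 6), and the values of the ventricles overlapped. By percentile within the array the ventricle difference was -5.74 points, the other way round.

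All CHF right ventricle values of Clu came from arrays of doubtful sign. With the sign turned, CHF minus CON was -7.21 and CHF minus HYP -9.15, and without those arrays the CHF right ventricle had no Clu value. The left ventricle differences also turned, to 3.86 for CHF minus CON, 4.95 for HYP minus CON and -1.08 for CHF minus HYP. HYP minus CON of the right ventricle rests on no doubtful array. CHF 10 and 14 correlated with each other at 0.830 across probes. Their correlation with left ventricle arrays had a median of 0.467 (from -0.0942 to 0.653), and with the other right ventricle arrays a median of -0.0910 (from -0.530 to 0.464). The median score of the cardiomyocyte markers was 0.737 and 0.864 on CHF 10 and 14, against -2.29 to 0.653 on the other right ventricle arrays and 0.554 to 1.31 on the left ventricle arrays. Fibroblast markers went the other way, at 0.354 and 0.254, against -0.806 to 0.867 and -0.285 to 0.204. Erythrocyte markers, at -1.97 and -2.17, lay inside both ranges, -4.98 to -0.254 and -5.81 to 5.29. The part of any of these in the Clu values was not tested.

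**Figure D4:**
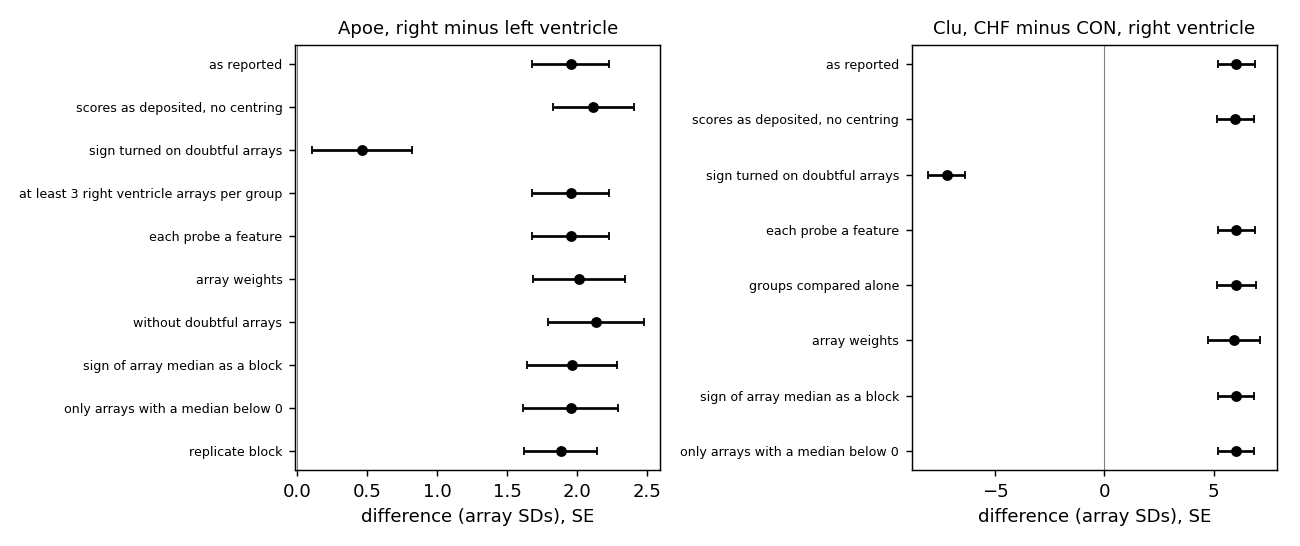
Difference in array SDs with its SE (horizontal axis) under each way of processing (vertical axis), for Apoe in right minus left ventricle (left) and Clu in CHF minus CON of the right ventricle (right). Apoe lies between 1.88 and 2.13 in all settings but the turned sign, where it is 0.460, and Clu lies between 5.93 and 6.04 except with the turned sign, where it is -7.21.

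The 2 genes did not run in parallel. Their scores had a Pearson correlation of -0.262 over the 13 arrays with both and of -0.922 over the 7 right ventricle arrays among them. Of these 7, CHF 10 and 14 had the highest Clu and the lowest Apoe scores. Both values come from the same arrays and share their scaling and sign.

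The genes most like each member were listed by Pearson correlation, as a description of arrays that share scaling, sign and the ventricle difference. For Apoe, over 24 arrays and among 1446 genes measured on all of them, these were the complement component C4b (0.837), the pacemaker channel Hcn2 (0.830), the fibrinogen alpha chain Fga (0.824), the slow skeletal troponin I Tnni1 (0.818) and the aldo-keto reductase Akr7a3 (0.815). Each was lower in the left ventricle, with means between -1.58 ± 0.221 for Hcn2 and -0.848 ± 0.169 for Akr7a3 (SD, n = 6). Within the 18 right ventricle arrays the correlations were lower, at 0.620 for C4b, 0.564 for Fga, 0.356 for Tnni1, 0.212 for Akr7a3 and 0.125 for Hcn2. CHF minus CON differences in the right ventricle were -0.722 ± 0.432 for C4b, -0.848 ± 0.332 for Fga and -0.420 ± 0.260 for Tnni1 (SE, n = 6 and 6). CHF minus HYP was 0.0160 ± 0.432 for C4b, so C4b did not share the order of the Apoe means.

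For Clu, over its 13 arrays and among 1885 genes, the most like were the constitutive heat shock cognate Hspa8 (0.953), the bile acid receptor Nr1h4 (0.928), the lysosomal protease Ctsl (0.916), the mitochondrial carrier Ucp2 (0.905) and the actin-binding profilin Pfn1 (0.905). These genes also have values on arrays where Clu has none, and their mean score was lower there in all 5. Hspa8 was at 1.20 ± 0.815 on the arrays with Clu (SD, n = 13) and at -2.96 ± 1.90 on those without (n = 10). Ctsl was at 0.648 ± 0.851 (n = 13) against -2.62 ± 2.97 (n = 6), and Nr1h4 at 1.09 ± 0.613 (n = 13) against -0.379 ± 0.443 (n = 11). The arrays with Clu include all 6 left ventricle arrays, and those without it are all right ventricle. All arrays without Clu but CON 22 also have a median above 0. On CON 22 Hspa8 was at 0.69, Ctsl at 2.675, Nr1h4 at -0.026, Ucp2 at -1.194 and Pfn1 at -0.555. Clu presence and the sign of the array median are thus hardly separable here. Within the right ventricle alone the 5 means were again higher on the 7 arrays with Clu, with Hspa8 at 1.25 ± 1.03 (n = 7). Apoe there was at 0.189 ± 0.639 on arrays with Clu (n = 7) and at 0.0242 ± 0.510 on those without (n = 11), a difference within the SDs.

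Of 18 apolipoprotein genes listed, 9 had a value, and 4 besides Apoe and Clu had enough arrays to be compared. None of these 4 passed limma's test at an adjusted p below 0.05 in any of the 7 comparisons as fitted here, although 3 of them did between the ventricles under other settings. In right minus left ventricle 18.3% of the 2494 features passed, 294 higher and 163 lower, and the apolipoproteins had mixed signs. Apom, a carrier of sphingosine 1-phosphate on high-density lipoprotein, differed by 0.430 ± 0.170 (SE, n = 18 and 6, limma adjusted p = 0.0777). Apob, the structural protein of low-density lipoprotein, differed by -1.09 ± 0.495 (n = 17 and 6, limma adjusted p = 0.119). Apoc1, an inhibitor of lipoprotein uptake, differed by -0.578 ± 0.312 (n = 18 and 6, limma adjusted p = 0.184), and Apoa2, of high-density lipoprotein, by -0.232 ± 0.407 (n = 16 and 6, limma adjusted p = 0.698). Apob passed with the replicate block, at -1.23 (limma adjusted p = 0.0437), and with array weights, at -1.50 (limma adjusted p = 0.00928). Apom passed without centring, at 0.594 (limma adjusted p = 0.0137), and with the sign of the array median as a block, at 0.670 (limma adjusted p = 0.0234), and stood at -0.346 with the sign of the doubtful arrays turned. Apoc1 passed with array weights, at -0.687 (limma adjusted p = 0.0450). Of all 2494 features 1080 passed limma's test with array weights and 753 with the replicate block, against 457 as fitted here. A pass under these 2 settings was therefore common. Without centring more features passed than as fitted here, and with the sign of the array median as a block fewer did, at 101.

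Apoc1 is the gene next to Apoe in the RefSeq gene order of the GRCr8 assembly, and the pair had opposite signs between the ventricles. On arrays with a median below 0, however, Apoc1 stood at -0.0405 and Apob at -0.0677, while Apoe stood at 1.95. Right ventricle means of Apoc1 were 0.313 ± 0.889 in CON, 0.0755 ± 0.584 in HYP and -0.588 ± 0.704 in CHF (SD, n = 6 each), the same order of means as for Apoe, with overlapping groups. CHF minus CON was -0.900 ± 0.412 for Apoc1 (SE, n = 6 and 6, limma adjusted p = 0.536), where 0.907% of the 3199 features passed. For Apoa2 it was -0.840 ± 0.462 (n = 6 and 5, limma adjusted p = 0.640). Apom and Apob stood at -0.253 ± 0.227 (n = 6 and 6, limma adjusted p = 0.797) and 0.0164 ± 0.659 (n = 5 and 6, limma adjusted p = 0.997). Apoa1 had a value on 3 arrays, at 0.262 and 1.3995 in CON and -0.4225 in HYP of the right ventricle. Apoa5 and Apoc3 had a single value each, 1.3675 and 1.5305, both in HYP of the right ventricle.

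The lists of apolipoproteins, lipases and transfer proteins, lipoprotein receptors and efflux, and sterol synthesis held 100 genes without Apoe and Clu, of which 45 had a value. In the right ventricle 35 were tested and 0 passed limma's adjusted p in CHF minus CON (3 at an unadjusted p below 0.05), in HYP minus CON (1 unadjusted) and in CHF minus HYP (1 unadjusted). The share of all features that passed was 0.907%, 0.281% and 0%, with 272, 131 and 158 of 3199 at an unadjusted p below 0.05. The median difference of the 35 genes in CHF minus CON was -0.246, against -0.0992 over all features. In the left ventricle 0 of 30 passed in each comparison, with 1, 0 and 1 at an unadjusted p below 0.05 in CHF minus CON, HYP minus CON and CHF minus HYP. Of all 2494 features 0% passed in each of these by limma, with 22, 46 and 75 at an unadjusted p below 0.05.

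Between the ventricles, 5 of the 30 lipid genes tested passed, 4 higher and 1 lower in the right ventricle. At an unadjusted p below 0.05 by limma there were 11 of 30, against 901 of all 2494 features. The share of all features that passed was 18.3%, so the list was near the background. Lipa, the lysosomal acid lipase, was higher by 1.02 ± 0.267 (SE, n = 18 and 6, limma adjusted p = 0.0156), and Rxrg, the gamma retinoid X receptor, by 1.17 ± 0.339 (n = 16 and 6, limma adjusted p = 0.0268). Pon1, a lactonase carried on high-density lipoprotein, was higher by 0.596 ± 0.189 and Lrp3, a member of the LDL receptor family, by 0.577 ± 0.191 (n = 18 and 6, limma adjusted p = 0.0351 and 0.0417). Lpl, the lipase that releases fatty acids to muscle from circulating lipoproteins, was lower, at -2.78 ± 0.708 (n = 13 and 6, limma adjusted p = 0.0168). With the sign of the doubtful arrays turned 0 of the 30 passed, and without those arrays, which leaves fewer samples, 0 passed.

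**Figure D5:**
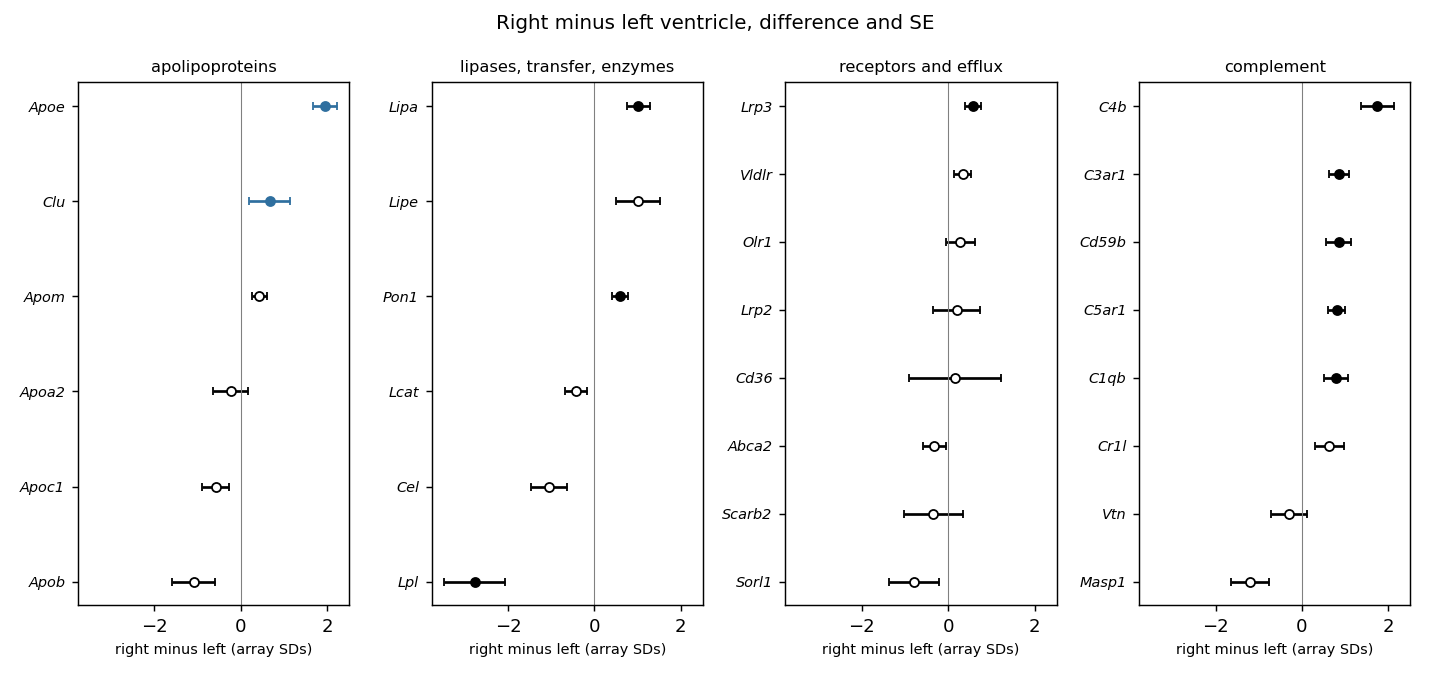
Right minus left ventricle difference in array SDs with its SE (horizontal axis) for the tested genes of 4 lists and for Apoe and Clu (vertical axis). Filled black points passed limma's adjusted p below 0.05, open points did not, and blue points are Apoe and Clu, which were not tested. Apoe has the highest difference of the apolipoproteins at 1.95, and 5 complement genes lie between 0.794 and 1.75.

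Among genes of complement, which clusterin restrains, 5 of 8 tested were higher in the right ventricle and 0 lower, against 11.8% of all features higher. C4b, a central component of the classical pathway, was higher by 1.75 ± 0.376 (SE, n = 18 and 6, limma adjusted p = 0.00560). The anaphylatoxin receptors C3ar1 and C5ar1 were higher by 0.860 ± 0.222 and 0.806 ± 0.198 (limma adjusted p = 0.0143 and 0.0119). The membrane inhibitor Cd59b and the C1q subunit C1qb were higher by 0.851 ± 0.289 and 0.794 ± 0.273 (limma adjusted p = 0.0446 and 0.0474). With the sign of the doubtful arrays turned none of these 5 passed, and C1qb was at -0.0285 while the others stayed above 0. On arrays with a median below 0 none of the 5 passed either, though all kept their direction. The median over the 8 was 0.800, against 0.0344 over all features. In the right ventricle comparisons 0 of 14 complement genes passed, with 1 at an unadjusted p below 0.05 in each. Of all 3199 features 0.907% passed in CHF minus CON, 0.281% in HYP minus CON and 0% in CHF minus HYP. At an unadjusted p below 0.05 there were 272, 131 and 158 of them, so 0 of 14 is near the background.

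Among extracellular and stress chaperones, to which clusterin belongs by function, 3 of 17 tested were lower in the right ventricle and 0 higher. Of all features 6.54% were lower and 18.3% passed in either direction, so 3 of 17 is near the background. At an unadjusted p below 0.05 by limma there were 6 of 17, against 901 of 2494 features. The small heat shock proteins Cryab and Hspb6 were lower, at -1.77 ± 0.533 and -1.18 ± 0.358, as was the cytosolic Hsp90ab1, at -1.86 ± 0.595 (SE, n = 18 and 6, limma adjusted p = 0.0293, 0.0302 and 0.0366). In CHF minus CON of the right ventricle 0 of 18 passed, with 2 at an unadjusted p below 0.05. Of all 3199 features 0.907% passed there, with 272 at an unadjusted p below 0.05.

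Cell type markers also differed between the ventricles, where 11.8% of all features were higher and 6.54% lower in the right ventricle. Cardiomyocyte markers were lower in the right ventricle in 4 of 13 tested, with Ckm at -2.14, Myl3 at -2.95, Casq2 at -2.95 and Ttn at -1.17. All 4 erythrocyte markers tested were lower, with Hba-a1 at -6.29, Hbb at -5.89, Hbb-b1 at -5.00 and Alas2 at -1.91. The left ventricle arrays were not uniform in this. The median score of the erythrocyte markers was 5.29 on 1 HYP left ventricle array and -5.81 on the other. The latter was below all right ventricle arrays, at -4.98 to -0.254. Fibroblast markers were higher in 4 of 9, with S100a4 at 1.66, Mgp at 1.34, Vim at 1.16 and Lum at 1.10. Of macrophage markers, a cell type that makes apolipoprotein E, 0 of 5 passed. At an unadjusted p below 0.05 by limma there was 1 of 5, against 901 of 2494 features. The difference was above 0 in 1 of 5, with a median of -0.298 against 0.0344 over all features. The median score of the macrophage markers ran from -0.971 to 0.564 on right and from -0.218 to 0.343 on left ventricle arrays. Of hepatocyte secretory genes 1 of 6 was higher, Fga at 1.71 ± 0.253 (limma adjusted p = 0.000215).

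Smaller counts were seen in the remaining lists, and with so few genes they cannot be set apart from those shares. Schwann cell and glial markers were higher in 2 of 7, Pmp22 at 1.08 and Ngfr at 1.06. Smooth muscle markers were higher in 1 of 5, Acta2 at 0.583. Of 5 adipocyte markers Lep was higher, at 0.757, and Fabp4 lower, at -1.14. Of 3 endothelial markers 0 passed limma's test, with 0 at an unadjusted p below 0.05. The part of these cell types in the Apoe difference was not tested. In CHF minus CON of the right ventricle the marker genes that passed were Acta2 at 1.58 of 6 smooth muscle, Cav1 at 4.92 of 4 endothelial and Fgb at 1.91 of 8 hepatocyte genes, all higher, against 0.875% of all features higher and 0.0313% lower. Cav1, like Clu, was measured in CHF only on CHF 10 and 14, whose sign is doubtful. With the sign turned 0 of these 3 genes passed, and Cav1 was at -3.68, Acta2 at 1.25 and Fgb at 1.30. Without those arrays Cav1 could not be tested, and Acta2 and Fgb passed at 1.55 and 1.74.

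Over all 15 lists, 31 genes passed between the ventricles, and with the sign turned 0 of these passed and 27 of 31 kept their direction. Without the doubtful arrays 3 passed, Fga, S100a4 and Acta2, and 31 of 31 kept their direction. On the arrays with a median below 0, 26 were tested, 1 passed, Fga at 1.26, and 26 of 26 kept their direction. C4b was at 1.99 there and Apoe at 1.95, while Lipa fell from 1.02 to 0.550 and Myl3 went from -2.95 to -0.485. Leaving out each array in turn, 10 of the 31 passed every time.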

How the data were processed

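Dual-dye array data of 24 rat ventricle samples were used as deposited. The authors gave each probe a score on each array, and the labels state neither its scale nor how scanning, dyes, normalization or filters were handled. Of 4803 probes, 4236 had a value on some array, 1634 on all, and 2162 to 3658 on each array. The number of arrays limits the precision. Symbols came from the platform annotation (4278 probes with 1 symbol, 4 with several, 521 with none); 4257 Entrez identifiers found in RefSeq changed 0 symbols. Arrays were centred on their median because medians differed by more than 0.2 (from -0.2 to 0.217). The design was written for log2 ratios, and its test was kept for the scores.

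A feature was a gene (mean of its probes) or an unnamed probe, with a value on at least 2 arrays per group. Comparisons used limma 3.58.1 (R 4.3.3; linear fits with moderated variances), with 18 right ventricle arrays or all 24 in 6 groups, and Benjamini-Hochberg adjustment over all features, checked on simulated data. Left ventricle groups of 2 arrays were assumed to vary like the others. The members and lists were chosen with earlier results of these data known. Genes named are Apoe, Clu, measured apolipoproteins, list members past an adjusted p of 0.05, and the 5 genes most correlated with each member. Alternatives covered centring, sign, filters, array weights, spread, single arrays left out and a replicate block.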

Additional observations from a re-analysis of the deposited data

Results flagged for a closer look

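Apoc1 in HYP of the right ventricle had 1 sample apart from the other 5. HYP 6 was at 1.209, while the next value was 0.133 and the lowest -0.429, so that the gap made up 0.657 of the range. Of 15 groups examined this way it was the only such sample, and about 1 in 20 groups would show one by chance. Apoc1 passed limma's test in no comparison as reported, and in right minus left with array weights, at -0.687 (adjusted p = 0.0450). With array weights 1080 of all 2494 features passed there.

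Clu moved in opposite directions in the ventricles in CHF against CON. Every CHF value was above every CON value in the right ventricle, by 6.04 on average (n = 2 and 3). Every CHF value was below every CON value in the left ventricle, by -1.18 on average (n = 2 and 2). Groups did not overlap for 3.22% of 3199 features in the right ventricle, most of them measured on more CHF arrays than Clu. That share is thus not at the size of the Clu groups, and it does not show that their separation is rare. In the left ventricle groups did not overlap for 27.3% of 2494 features, so the separation there is common at that size. The shares of the ventricles cannot be set against each other. The difference between the right and left Clu effects was not tested. Both contrasts hold arrays of doubtful sign. Among the 30 lipid genes tested for a different effect in the ventricles, 0 passed limma's test, with the smallest adjusted p at 0.783.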

How the results depend on the processing

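The sign of 5 doubtful arrays moved most values. With it turned, Clu was at -7.21 for CHF minus CON and -9.15 for CHF minus HYP in the right ventricle. In the left ventricle Clu was then at 3.86, 4.95 and -1.08 for CHF minus CON, HYP minus CON and CHF minus HYP, and Apoe at -2.64, -3.94 and 1.30. Apoe in right minus left was 0.460. Without the doubtful arrays, Apoe in CHF minus HYP of the left ventricle was -0.344. On arrays with a median below 0, Apoe in CHF minus HYP of the right ventricle was -0.959. As a percentile, Clu in right minus left was -5.74. Clu had no value with at least 3 arrays per group.

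Leaving out single arrays, Apoe ranged from 1.62 to 2.28 in right minus left, from -0.902 to -0.661 in CHF minus CON of the right ventricle, from -0.516 to -0.181 in HYP minus CON and from -0.585 to -0.281 in CHF minus HYP. Clu in these ranged from 0.434 to 0.921, 5.28 to 6.74, 1.18 to 2.64 and 3.54 to 4.66. In the left ventricle Clu ranged from -1.61 to -0.754 for CHF minus CON, -3.68 to -2.30 for HYP minus CON and 1.12 to 2.50 for CHF minus HYP. There, where 1 array then stands for a group and is assumed to vary like the others, Apoe ranged from -0.688 to 1.30 for CHF minus CON, from -1.03 to 0.964 for HYP minus CON and from -0.344 to 1.02 for CHF minus HYP.

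Lipid genes past the test in right minus left numbered 5. They were 8 without centring, 0 with the sign turned, 15 with array weights, 0 without doubtful arrays, 1 with the sign of the array median as a block and 0 on arrays with a median below 0. Leaving out single arrays gave 1 to 8. The count was 3 without HYP 3 or CHF 9 of the right ventricle, 8 without CHF 14, 2 without HYP 3, CHF 15 or CON 22 of the left ventricle, 3 without HYP 5 and 1 without CHF 9 or CON 21. In CHF minus CON of the right ventricle 0 passed. It was 1 (Cd36) with the array median block, 3 (Cd36, Cel and Nr1h4) on arrays with a median below 0, and 0 to 1 leaving out single arrays, the 1 being Cd36 without CHF 9. These lipid genes were named after their values were seen. Over all features, 53 of 3199 passed higher and 9 lower with that block. On arrays with a median below 0 it was 145 and 58 of 2272, and without CHF 9 it was 21 and 1 of 3083.

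Over all features, 457 passed in right minus left, of which 64.3% were higher, and 75.5% without centring, which moved the median of all features from 0.0344 to 0.197. The count was 0 with the sign turned, 1080 with array weights, 47 without doubtful arrays, 101 with the median block, 19 on arrays with a median below 0 and 140 to 679 leaving out single arrays. Features tested numbered 2494 as reported, 2570 without doubtful arrays and 2118 on arrays with a median below 0. In CHF minus CON of the right ventricle 29 passed, and 9, 18, 62 and 203 with the sign turned, without doubtful arrays, with the median block and on arrays with a median below 0 (16 to 38 leaving out single arrays). Here 3199 features were tested as reported, 3017 without doubtful arrays and 2272 on arrays with a median below 0. In HYP minus CON 9 passed, 1 with the sign turned, 0 with the groups alone, 1 on arrays with a median below 0 and 3 to 9 leaving out single arrays. In CHF minus HYP 0 passed, and 1 with the sign turned or with array weights. In HYP minus CON of the left ventricle 0 passed, and 96 with the sign turned.

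Sample numbers shared by the ventricles were not shown to pair the samples: of 6 pairs, 3 had deviations correlating above 0.1 (from -0.297 to 0.416). Among 18 right ventricle arrays the equal number ranked 2, 1 and 2 for numbers 3, 5 and 15. It ranked 16, 9 and 11 for 9, 21 and 22, whose left ventricle arrays have a doubtful sign. Deviations of the 2 left ventricle arrays in a group mirror each other, so the 6 are not separate checks. With the replicate block Apoe was 1.88, Clu 0.667, lipid genes past the test 10 and all features 753.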
